A study of Mus musculus with 11 samples.

Results

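The 10 transcription factors of valve mesenchyme followed were Twist1, Snai1, Snai2, Tbx2, Tbx20, Msx1, Msx2, Prrx1, Prrx2 and Osr1. They were taken by gene symbol, and all 10 were found among the 24062 genes listed for the Ift88 experiment and among the 26667 listed for the Dzip1 experiment. All 10 also passed the filter on low counts in both experiments, although Tbx2 did so in the Ift88 experiment through its knockout libraries alone. RNA was sequenced from mouse mitral leaflets, the flaps of the valve at the exit of the left atrium, in 11 libraries made with a low-input kit.

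The Ift88 experiment held 3 knockout libraries, from mice with a Cre driven by Nfatc1 and Ift88 f/f, and 2 wild-type libraries, whose mice carried this Cre with Ift88+/+. The labels mark all 5 as re-analysed. Ift88 encodes a part of the transport that builds cilia. Nfatc1 is a gene of endocardium and valve endothelium, so cells that never used its promoter keep an intact floxed allele, and the counts of a whole leaflet mix both kinds of cell. In the Dzip1 experiment, 3 libraries came from mice with 1 S14R allele (Dzip1S14R/+) and 3 from Dzip1+/+ mice. The Dzip1 protein sits at the base of cilia. The sources used here give neither the age of the mice nor whether each library is a separate animal, so a p-value speaks only of the spread between libraries, which may be technical. In bulk samples like these, fewer cells of a type and less RNA per cell cannot be told apart.

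Leaflets form from endocardial cushions, whose mesenchyme arises when endocardial cells lose their junctions and migrate into the matrix. Snai1 and Snai2 are zinc finger repressors of cadherin genes that drive this change, and the homeobox factors Msx1 and Msx2 are induced by bone morphogenetic protein (BMP) signals from the nearby muscle. Twist1, a basic helix-loop-helix factor, keeps cushion mesenchyme dividing, and the T-box factors Tbx2 and Tbx20 act in the atrioventricular canal, Tbx2 as a repressor of the chamber muscle programme and Tbx20 in muscle, endocardium and cushion mesenchyme alike. Prrx1 and Prrx2 are paired-type homeobox factors of connective tissue, and Osr1, an odd-skipped zinc finger factor, acts in the mesoderm that divides the atria. Snai1 with Snai2, Msx1 with Msx2 and Prrx1 with Prrx2 are close paralogues.

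RefSeq promoters (build GRCm38.p6) were on hand for 7 of the 10 factors, all but Snai2, Tbx2 and Osr1. Those of Snai1, Prrx1 and Tbx20 are printed because the libraries of the groups did not overlap for these genes in at least 1 experiment, while the Msx2 window, which meets this too, lies within the annotated gene and is not printed. Each runs 5′ to 3′ on the strand of its gene up to the start of the gene in GENCODE M21, and capitals mark matches, on either strand, to any motif searched. The Snai1 stretch is chr2:167537945-167538194 on the forward strand, the Prrx1 stretch chr1:163313711-163313900 on the reverse strand and the Tbx20 stretch chr9:24774304-24774553 on the reverse strand.
Snai1: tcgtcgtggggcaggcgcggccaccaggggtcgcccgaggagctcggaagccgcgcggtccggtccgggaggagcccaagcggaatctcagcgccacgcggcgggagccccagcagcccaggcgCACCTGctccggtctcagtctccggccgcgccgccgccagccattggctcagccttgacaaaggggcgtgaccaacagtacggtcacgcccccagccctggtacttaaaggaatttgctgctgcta
Prrx1: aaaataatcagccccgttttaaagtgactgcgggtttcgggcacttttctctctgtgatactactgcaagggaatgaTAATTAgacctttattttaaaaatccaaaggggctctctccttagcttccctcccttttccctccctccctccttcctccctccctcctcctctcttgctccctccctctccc
Tbx20: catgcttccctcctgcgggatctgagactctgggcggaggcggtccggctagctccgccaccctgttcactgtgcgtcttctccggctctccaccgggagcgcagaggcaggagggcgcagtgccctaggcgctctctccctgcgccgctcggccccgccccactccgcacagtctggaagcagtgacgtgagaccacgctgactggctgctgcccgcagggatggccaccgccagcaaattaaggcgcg

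Motifs were searched in the 250 bases before the RefSeq start of each gene, and a match is only a description of these letters. By the GENCODE M21 annotation the Prrx2 and Msx2 windows lie inside their genes, and the Prrx1 window overlaps its gene in part, a stretch left out of the sequence above. The E-box CAGGTG, read on the other strand as CACCTG, is bound by Snail and Twist type factors. It stood in 2 of the 7 promoters, those of Snai1 and Msx1, and in 17.2% of 32851 mouse promoters. The looser E-box CANNTG, which contains CAGGTG, stood in 3 of the 7, the other being that of Msx2, and in 66.2% of all promoters. The homeodomain core TAATTA stood in the promoters of Prrx1 and Msx2 and in 4.84% of all. The E-box CATCTG, the T-box half-site GGTGTGA, the homeodomain core TAATTG and the Smad site GGCGCC had no match in the 7 promoters and stood in 14.4%, 3.33%, 7.17% and 9.59% of all. The Tbx20 promoter held none of the motifs. The GC content was above 60% in 6 of the 7 and was 47.6% in Prrx1, against a median of 52.4% over all promoters.

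Library depth differed between the experiments: the totals were 23.4 M to 40.3 M counts in the Ift88 knockout and 31.4 M and 53.8 M in its wild type, and 86.0 M to 93.5 M in S14R/+ and 75.1 M to 79.1 M in its wild type. Levels are given as CPM, the count of a gene scaled to the total of its library. Beyond counting error, libraries of a group varied with a coefficient of 87.7% in the Ift88 tissue and 7.85% in the Dzip1 tissue. Ift88 itself stood at 3.03, 4.12 and 0.428 CPM in the knockout libraries and 6.31 and 21.2 CPM in the wild type, so every knockout library was below both wild-type libraries, although the log2 fold change of -2.48 ± 1.13 (SE) missed the threshold in edgeR (adjusted p = 0.801). The counts cannot show the S14R allele, and Dzip1 stood at 29.5, 28.0 and 28.2 CPM in S14R/+ and 30.4, 27.6 and 32.3 CPM in its wild type.

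The Ift88 wild-type libraries did not resemble each other. Summed over 16 heart muscle markers, the level was 41440, 32650 and 42930 CPM in the knockout libraries and 63060 and 136 CPM in wild-type replicates 1 and 2. Endothelial markers, 12 genes, summed to 2147, 3372 and 2313 CPM in the knockout and 443 and 4019 CPM in the wild type. The 12 valve interstitial markers summed to 12320, 13060 and 8834 CPM in the knockout and 2485 and 8898 CPM in the wild type, and none of them was at 0 in any library. Wild-type replicate 1 was therefore rich in muscle and poor in valve transcripts, and wild-type replicate 2 was nearly free of muscle. Smooth muscle markers, 10 genes, summed to 1474 to 3209 CPM in the knockout and 768 and 2001 CPM in the wild type, and 10 leukocyte markers, 9 of them listed, to 164 to 325 CPM in the knockout and 166 and 391 CPM in the wild type. Melanocyte and Schwann markers, 10 genes, summed to 114 to 270 CPM in the knockout and 78.3 and 108 CPM in the wild type. Epicardial markers, 8 genes, summed to 12.2 to 278 CPM in the knockout and 15.6 and 30.1 CPM in the wild type, with Wt1 at 0 in knockout replicates 1 and 3 and wild-type replicate 2.

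Tbx2 and Tbx20, the T-box factors, had the smallest p-values among the 10 in the Ift88 experiment, and both were higher in every knockout library than in either wild-type library. Tbx2, on chromosome 11 of GRCm38 from 85832551 to 85841948, had 35, 279 and 152 counts in the knockout libraries and 2 and 3 counts in the wild type. That is 1.12, 6.93 and 6.51 CPM in the knockout, against 0.0637 and 0.0558 CPM in the wild type. With the counts of each group pooled, the rate was 83.6 times that of the wild type, with a 95% counting interval of 35.6 to 259 (exact, counting error only). The wild-type libraries lay close together at almost no signal, and the knockout libraries spread over a wide range above them.

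The fitted log2 fold change of Tbx2 was 6.12 ± 1.77 (SE), a value that depends on how the test handles counts near 0. The threshold of 0.05 was missed in edgeR's quasi-likelihood test (adjusted p = 0.801) and in limma-voom (adjusted p = 0.703) and met in DESeq2 (adjusted p = 0.000747). In the authors' deposited table its adjusted p was 0.0276. The fold change was 6.35 without wild-type replicate 1 and 5.86 with replicate 2 left out instead. With the mean of the muscle markers as a covariate it was 5.80. Wild-type replicate 2 was nearly free of these markers, so this fit comes close to leaving that library out.

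Among the atrial muscle markers read here, Sln followed the order of Tbx2 within the knockout group, while Myl7 and Nppa did not. Sln, the sarcolipin gene of atrial muscle, stood at 0, 646 and 512 CPM in the knockout libraries and 2.39 and 0.707 CPM in the wild type. Myl7, the atrial myosin light chain, stood at 150, 5349 and 7183 CPM in the knockout and 465 and 10.9 CPM in the wild type. Both were highest in knockout replicates 2 and 3, the libraries with most Tbx2. Nppa, the natriuretic peptide gene of atrial muscle, chosen after its values were seen, stood at 349, 45.9 and 518 CPM in the knockout and 1292 and 0.651 CPM in the wild type, lowest among knockout libraries in replicate 2. The part of these genes in the Tbx2 difference was not tested. In the Dzip1 experiment Tbx2 stood between 21.5 and 26.9 CPM in all 6 libraries while Sln stood between 2.06 and 6.12 CPM, a level set across tables that were counted separately.

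Tbx20, on chromosome 9 from 24718138 to 24774303, stood at 375, 517 and 447 CPM in the knockout libraries and 142 and 45.9 CPM in the wild type. The groups did not overlap. The log2 fold change of 2.02 ± 0.642 (SE) was past the threshold neither in edgeR (adjusted p = 0.801) nor in DESeq2 (adjusted p = 0.113). With the mean of the muscle markers as a covariate, a fit close to leaving out wild-type replicate 2, it was 1.49 (adjusted p = 0.198 in edgeR). Without wild-type replicate 1 it was 3.29 and passed in edgeR (adjusted p = 0.020), and without wild-type replicate 2 it was 1.34 and did not pass (adjusted p = 0.180). Knockout replicates 1 and 2 and wild-type replicate 1 share IR28N in their titles, and within these 3 libraries the log2 fold change was 1.34 for Tbx20 and 5.59 for Tbx2.

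**Figure D1:**
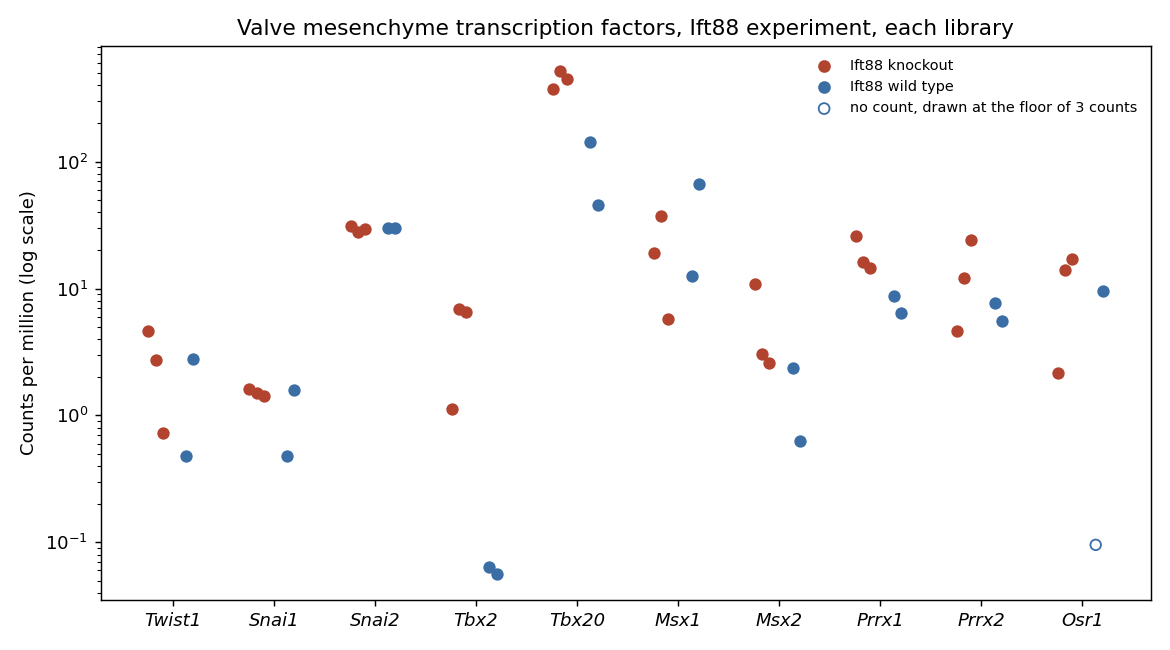
Levels of the 10 factors in CPM on a log axis in the Ift88 experiment, with 1 point per library, the 3 knockout libraries left of the 2 wild-type libraries for each gene. Tbx2, Tbx20, Msx2 and Prrx1 show no overlap, and the open point marks Osr1 in wild-type replicate 1, which had no count and is drawn at the floor of 3 counts (0.0955 CPM).

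Fold changes in the Ift88 experiment followed transcript length, which touches Tbx20 and Prrx1, the factors with the longest annotated exons. With genes split by length into 5 equal bins, the median log2 fold change was -0.43 in the shortest bin and 0.59 in the longest, which holds Tbx20 and Prrx1. After a correction for length the log2 fold change of Tbx20 was 1.16 and that of Prrx1 was 0.41, while that of Tbx2, in the bin next to the shortest, was 6.13. Prrx1, on chromosome 1 from 163245119 to 163313710, stood at 25.8, 16.2 and 14.5 CPM in the knockout and 8.73 and 6.36 CPM in the wild type. Its groups did not overlap, and its log2 fold change of 1.16 ± 0.636 (SE) missed the threshold in edgeR (adjusted p = 0.833).

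The paralogue Prrx2, on chromosome 2 from 30834972 to 30881251, showed another order of libraries. It stood at 4.59, 12.1 and 24.1 CPM in the knockout and 7.71 and 5.58 CPM in the wild type, and its groups overlapped because knockout replicate 1 was the lowest of all. The log2 fold change was 0.86 ± 0.886 (SE), was 0.16 without knockout replicate 3, and was -0.20 within the IR28N libraries. Prrx2 took 15.1%, 42.7% and 62.4% of the counts of the Prrx pair in the knockout libraries, with Wilson 95% intervals of 13.0 to 17.5%, 39.9 to 45.6% and 59.2 to 65.5%. In the wild type it took 46.9% and 46.7%, with intervals of 42.6 to 51.2% and 42.9 to 50.6%. These are shares of counts, and Prrx1 has the longer exons. Per exon length the Prrx2 share was 50.1%, 80.8% and 90.4% in the knockout and 83.3% and 83.2% in the wild type. The knockout libraries thus differed from each other by more than counting error on both sides of the wild type.

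Msx1 and Msx2, the homeobox factors downstream of BMP, had opposite signs with all libraries in the fit. Msx2, on chromosome 13 from 53466884 to 53473074, stood at 10.8, 3.05 and 2.61 CPM in the knockout and 2.36 and 0.632 CPM in the wild type, with no overlap but a narrow gap. Msx1, on chromosome 5 from 37820485 to 37824583, stood at 19.1, 37.5 and 5.78 CPM in the knockout and 12.5 and 67.2 CPM in the wild type. The log2 fold changes were 1.66 ± 1.37 for Msx2 and -0.95 ± 0.905 for Msx1 (SE), and neither passed the threshold. Msx1 turned to 0.43 without wild-type replicate 2, the library in which it was highest, and Msx2 went to 0.64 without knockout replicate 1 and 3.17 when wild-type replicate 1 was left out. Msx2 took 36.2%, 7.53% and 31.1% of the counts of this pair in the knockout and 15.9% and 0.933% in the wild type, and these shares overlap.

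Of the Snail factors, Snai2 had the smallest standard error of the 10. On chromosome 16 from 14705852 to 14709385, it stood at 30.9, 27.7 and 29.7 CPM in the knockout and 30.0 and 30.2 CPM in the wild type. All 5 libraries lay within a narrow band although their muscle content differed greatly. The log2 fold change was -0.17 ± 0.388 (SE), and it was 0.06 after the length correction. Snai1, on chromosome 2 from 167538195 to 167542814, was scarce, with 51, 61 and 33 counts in the knockout and 15 and 85 counts in the wild type. That is 1.63, 1.52 and 1.41 CPM in the knockout and 0.478 and 1.58 CPM in the wild type, so only wild-type replicate 1 stood apart. Its log2 fold change of 0.52 ± 1.5 (SE) was -0.04 without that library. Snai2 took 94.8 to 95.5% of the counts of the Snail pair in the knockout libraries and 98.4% and 95% in the wild type.

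The fold changes of Twist1 and Osr1 also depended on single libraries. Twist1, on chromosome 12 from 33957671 to 33959829, stood at 4.59, 2.73 and 0.728 CPM in the knockout and 0.478 and 2.81 CPM in the wild type. The log2 fold change was 0.71 ± 1.52 (SE), -0.02 without wild-type replicate 1 and, with replicate 2 left out instead, 2.19. It was -0.000315 without knockout replicate 1. Osr1, on the same chromosome from 9570116 to 9581500, stood at 2.17, 13.9 and 17.0 CPM in the knockout. In the wild type it had no count in replicate 1, which allows up to 0.0955 CPM, and 9.61 CPM in replicate 2. The fitted log2 fold change was 1.23 ± 2.02 (SE) with all libraries and 0.19 without wild-type replicate 1. It also moved with the method, to 3.44 in limma-voom and 4.38 with the title prefix as a covariate. With the mean of the muscle markers as a covariate, a fit close to leaving out wild-type replicate 2, it was 9.60. It passed the threshold in none of these.

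Over all 10 factors, 8 had a positive log2 fold change in the Ift88 experiment, and the median was 1.01, against -0.01 over 14244 genes tested. The libraries of the groups did not overlap for 4 of the 10, all higher in the knockout, where 15.4% of all genes tested were higher and 7.55% lower without overlap. With edgeR 0 of the 10 passed, as did 0% of all genes, and 2 of the 10 had an unadjusted p under 0.05, against 6.01% of all genes. These were Tbx20 and Tbx2, and Tbx2 passed the filter on low counts through its knockout libraries alone. The 10 were chosen with earlier results of these data known, so nothing about the set is read from these shares. DESeq2 called 1 of the 10, Tbx2, and 2.33% of all genes it tested, nearly all of these higher (2.21%).

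**Figure D2:**
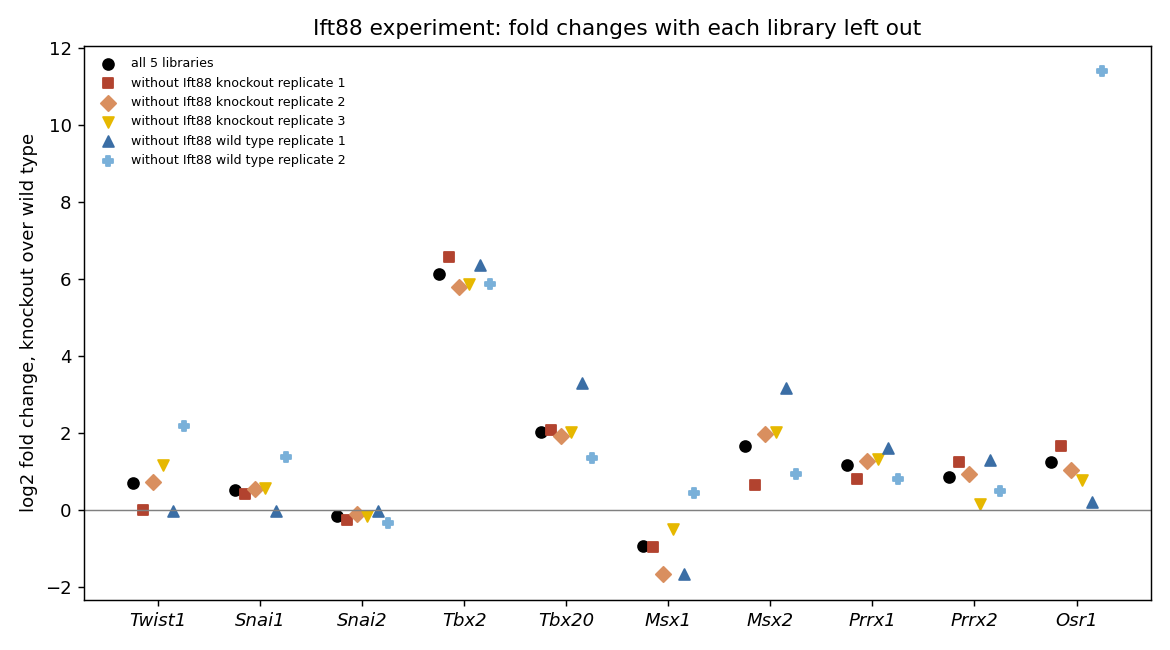
Log2 fold change, knockout over wild type, of each factor in the Ift88 experiment with all 5 libraries (black) and with each library left out in turn. Tbx2 stays between 5.78 and 6.56 and Tbx20 between 1.34 and 3.29, while Twist1, Snai1 and Msx1 cross 0; the Osr1 point of 11.4 is a fit against a lone wild-type library with no count.

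Other genes of the same programmes were read from lists, without the length correction, with 0 genes passing in edgeR in each of them. Of 31 tested paralogues and other valve transcription factors, 23 had a positive fold change, with a median of 0.56. Of the 31, 10 were higher and 2 lower without overlap, against 15.4% and 7.55% of all genes tested. DESeq2 called 2 of them higher, and 2.21% of all genes it tested. Tbx5, a T-box factor of atria and atrioventricular canal, stood at 48.2, 180 and 157 CPM in the knockout and 18.2 and 4.74 CPM in the wild type. Shox2, a homeobox factor of sinoatrial muscle, stood at 0.765, 22.5 and 5.35 CPM in the knockout, and in the wild type it had no count in replicate 1 and 0.112 CPM in replicate 2. Tbx5 and Shox2 were the genes that DESeq2 called (adjusted p = 0.0184 and adjusted p = 0.00263), and Shox2, like Tbx2, passed the filter on low counts through its knockout libraries alone. Zeb2, a zinc finger repressor that acts with Snail factors, stood at 31.2, 44.6 and 68.2 CPM in the knockout and 13.3 and 11.2 CPM in the wild type. Like Tbx2, both Tbx5 and Shox2 were higher in knockout replicates 2 and 3 than in replicate 1.

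Of 28 tested genes of BMP and TGF-beta ligands, receptors, Smads and Id targets, which act upstream of several of the 10, 23 had a positive fold change, with a median of 0.82. Of the 28, 8 were higher and 0 lower without overlap, against 15.4% and 7.55% of all genes tested. DESeq2 called 2.33% of all genes it tested and 1 of this list, the BMP antagonist gene Chrdl1. Chrdl1 had 121, 860 and 38 counts in the knockout and 0 and 1 in the wild type, so it too passed the filter through the knockout alone. Tgfb2, a ligand that promotes cushion transformation, stood at 102, 178 and 95.7 CPM in the knockout and 18.1 and 65.6 CPM in the wild type, and the BMP receptor gene Bmpr2 at 63.5, 90.1 and 23.6 CPM in the knockout and 5.29 and 28.3 CPM in the wild type.

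Of 24 tested effectors of the epithelial-mesenchymal transition and mesenchyme, 18 had a positive fold change, with a median of 1.04. Of the 24, 14 were higher and 0 lower without overlap, against 15.4% and 7.55% of all genes tested. DESeq2 called 6 of them higher, and 2.21% of all genes it tested. The smallest p-values belonged to Tnc, which encodes tenascin C, at 67.3, 69.7 and 95.2 CPM in the knockout and 6.05 and 4.20 CPM in the wild type, and to the type I collagen genes. Col1a1 stood at 322, 534 and 275 CPM in the knockout and 33.3 and 49.6 CPM in the wild type. Col1a2 stood at 874, 1072 and 771 CPM in the knockout and 145 and 138 CPM in the wild type. Tnc and Col1a2 fall in the longest length bin, where the median log2 fold change of all genes was 0.59, and these values are not corrected for length. Of the 12 valve interstitial markers, some of which are also in this list, 10 had a positive fold change, with a median of 1.10. Of the 12, 7 were higher without overlap, against 15.4% of all genes tested. The part of these markers in these differences was not tested. The whole list of effectors summed to 15350, 17410 and 13090 CPM in the knockout and 4540 and 11150 CPM in the wild type. The summed level of the 10 factors was 475, 639 and 549 CPM in the knockout and 204 and 170 CPM in the wild type. Most of it was Tbx20 in every library but wild-type replicate 2, where Msx1 was higher than Tbx20.

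In the Dzip1 experiment the log2 fold changes lay between -0.19 and 0.16 for 9 of the 10 factors, and Osr1 stood apart at -0.87 with overlapping groups. Snai1 had the smallest p-value. It stood at 16.7, 16.4 and 17.4 CPM in S14R/+ and 19.9, 19.1 and 19.3 CPM in the wild type, from at least 1438 counts per library. Every S14R/+ library was below every wild-type library, and the ratio of group means was 0.868. The log2 fold change of -0.19 ± 0.0535 (SE) was past the threshold neither in edgeR (unadjusted p = 0.00518, adjusted p = 0.822) nor in DESeq2 (adjusted p = 0.663). It lay between -0.22 and -0.17 with each library left out in turn.

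Snai2 and Prrx1 were lower in S14R/+ without overlap as well. Snai2 stood at 18.5, 18.6 and 17.8 CPM in S14R/+ and 18.8, 20.0 and 20.5 CPM in the wild type, with a small gap between the groups. Its log2 fold change was -0.10 ± 0.0545 (SE), past no threshold in edgeR (adjusted p = 0.828). Prrx1 stood at 27.6, 28.9 and 26.4 CPM in S14R/+ and 30.2, 31.3 and 30.2 CPM in the wild type, and its fold change on the log2 scale, -0.13 ± 0.0536 (SE), missed the threshold too (adjusted p = 0.828 in edgeR). For Prrx2 the groups overlapped, at 34.4, 36.1 and 34.7 CPM in S14R/+ and 34.8, 33.4 and 36.2 CPM in the wild type, and the log2 fold change was 0.03 ± 0.0473 (SE). Prrx2 took 55.5%, 55.6% and 56.8% of the counts of its pair in S14R/+ and 53.5%, 51.7% and 54.5% in the wild type. These shares do not depend on scaling and did not overlap, but the Wilson 95% intervals of neighbouring libraries did. Per exon length they were 87.5%, 87.6% and 88.1% in S14R/+ and 86.7%, 85.8% and 87.1% in the wild type.

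**Figure D3:**
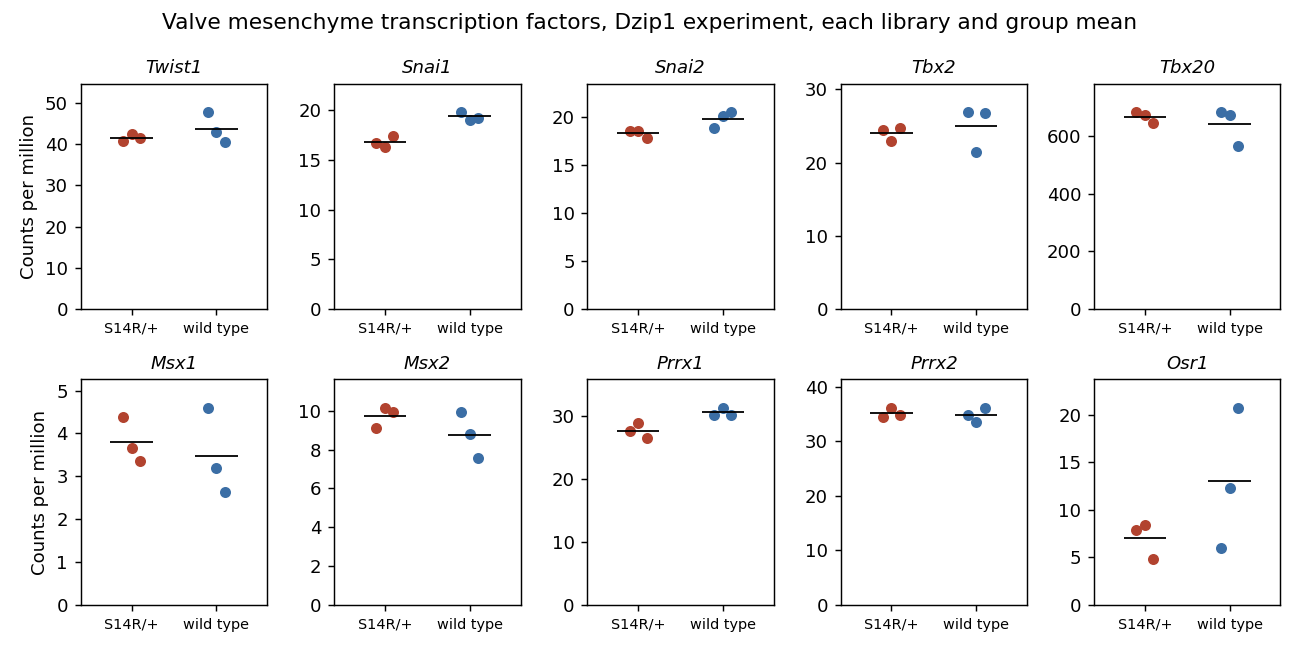
Levels of the 10 factors in CPM in the Dzip1 experiment, 1 panel per gene with its axis from 0, points for the 3 S14R/+ libraries on the left and the 3 wild-type libraries on the right, and bars for the group means. Snai1, Snai2 and Prrx1 separate by small distances, and Osr1 spreads from 5.99 to 20.8 CPM within the wild type.

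Osr1 had the largest fold change of the 10 in this experiment and the widest spread. It stood at 7.86, 8.44 and 4.80 CPM in S14R/+ and 5.99, 12.3 and 20.8 CPM in the wild type. The groups overlapped, with wild-type replicate 1 below 2 of the S14R/+ libraries. The log2 fold change of -0.87 ± 0.361 (SE) missed the threshold in edgeR (adjusted p = 0.828) and was -0.38 without wild-type replicate 3. By Xist and Y-linked genes, S14R/+ replicate 2 and wild-type replicate 3 were female and the other 4 libraries male, and with sex as a covariate the value was -0.79.

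For the other factors the genotypes could not be separated. Twist1 stood at 40.8, 42.3 and 41.6 CPM in S14R/+ and 47.8, 42.8 and 40.5 CPM in the wild type, a log2 fold change of -0.06 ± 0.063 (SE). Tbx2 stood at 24.4, 22.9 and 24.7 CPM in S14R/+ and 26.9, 21.5 and 26.8 CPM in the wild type, a log2 fold change of -0.05 ± 0.0802 (SE). Tbx20 stood at 685, 674 and 645 CPM in S14R/+ and 684, 672 and 567 CPM in the wild type, a log2 fold change of 0.07 ± 0.0726 (SE). In all of these genes the ranges of the groups overlapped. Msx1 stood at 4.37, 3.66 and 3.36 CPM in S14R/+ and 4.60, 3.19 and 2.62 CPM in the wild type, and Msx2 at 9.10, 10.2 and 9.94 CPM in S14R/+ and 9.96, 8.81 and 7.57 CPM in the wild type. Their log2 fold changes were 0.14 ± 0.198 for Msx1 and 0.16 ± 0.104 for Msx2 (SE). Wild-type replicate 3 was lowest for Msx1, Msx2 and Tbx20, and without it the log2 fold change of Msx1 was -0.04 in place of 0.14 and that of Tbx20 was -0.02.

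**Figure D4:**
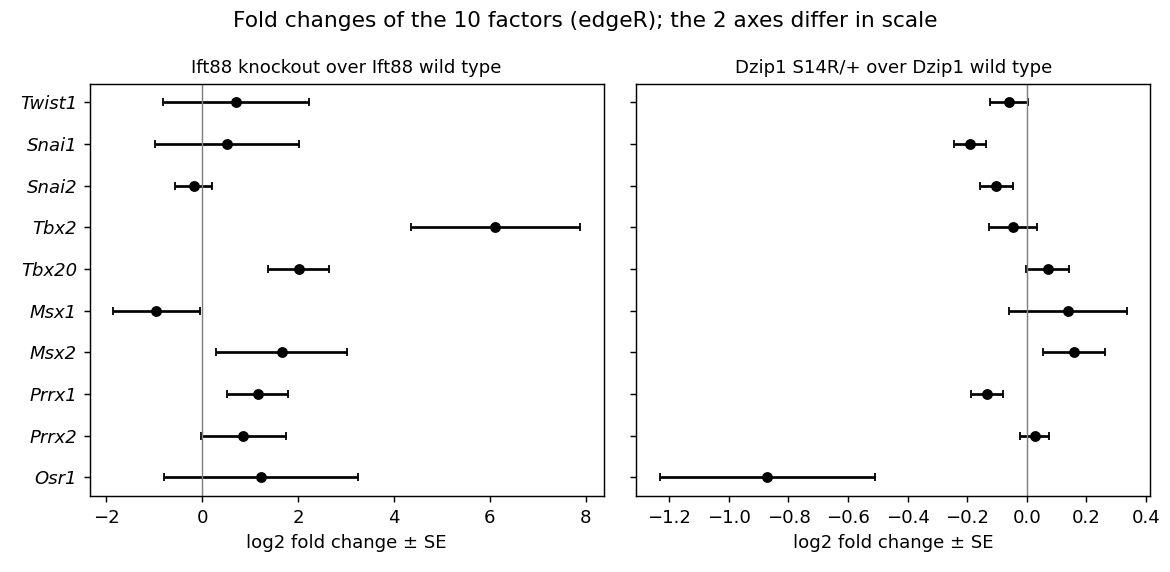
Log2 fold change with its standard error for the 10 factors, Ift88 knockout over wild type on the left and Dzip1 S14R/+ over wild type on the right, with horizontal axes of different scale. The Ift88 values reach 6.12 (Tbx2) with wide errors, and the Dzip1 values lie between -0.87 (Osr1) and 0.16 (Msx2).

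Over all 10 factors the median log2 fold change in the Dzip1 experiment was -0.05, against 0 over 16160 genes tested, and 4 of the 10 were positive. Of the 10, 3 were lower in S14R/+ without overlap and 0 higher, where 5.86% of all genes tested were lower and 4.58% higher without overlap. With edgeR 0 of the 10 passed, as did 0% of all genes, and 3 of the 10 had an unadjusted p under 0.05, against 5.93% of all genes. DESeq2 and limma-voom also called 0 genes. Here too the choice of the 10 with earlier results known means that nothing about the set is read from these shares.

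Marker levels were also read in the Dzip1 libraries. The summed heart muscle and leukocyte levels of the groups did not overlap, and those of the other marker lists, valve interstitial among them, did. Leukocyte markers summed to 80.6, 87.89 and 90.55 CPM in S14R/+ and 91.06, 95.47 and 113.9 CPM in the wild type, a narrow gap. The 12 valve interstitial markers summed to 7865, 8110 and 7685 CPM in S14R/+ and 8096, 8768 and 9897 CPM in the wild type, and 11 of them had a negative fold change, with a median of -0.12. The 16 heart muscle markers summed to 46650, 46670 and 47030 CPM in S14R/+ and 44530, 45070 and 40480 CPM in the wild type, with 14 positive and a median of 0.11. The part of cell content in the Snai1, Snai2 and Prrx1 differences was not tested. Endothelial markers (5 of 12 positive) had a median of -0.01. Epicardial markers (1 of 8), leukocyte markers (1 of 9), melanocyte and Schwann markers (3 of 8) and smooth muscle markers (5 of 10) had medians of -0.12, -0.31, -0.12 and -0.03.

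In the lists of related genes, 0 passed in edgeR or DESeq2 in the Dzip1 experiment. Of 33 tested paralogues and other valve transcription factors, 11 had a positive fold change, with a median of -0.02. Without overlap, 4.58% of all genes tested were higher and 5.86% lower, and of the 33, 0 were higher and 1 lower. That gene was Hey1, a Notch target that restrains the BMP signal in the canal, at 15.6, 15.7 and 15.9 CPM in S14R/+ and 18.6, 19.3 and 18.1 CPM in the wild type, a log2 fold change of -0.24 ± 0.0554 (SE). The related Heyl stood at 21.9, 24.3 and 19.8 CPM in S14R/+ and 23.2, 30.3 and 31.9 CPM in the wild type, and Nr2f2, a nuclear receptor of atrial muscle and veins, at 27.7, 27.0 and 24.0 CPM in S14R/+ and 27.2, 28.2 and 39.9 CPM in the wild type.

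Of 31 tested BMP and TGF-beta genes, 14 had a positive fold change. Of the 31, 2 were higher and 4 lower without overlap, against 4.58% and 5.86% of all genes tested. Tgfbr3, a TGF-beta co-receptor, stood at 120, 115 and 118 CPM in S14R/+ and 108, 107 and 104 CPM in the wild type, and Bmp10, a ligand from heart muscle, at 77.0, 81.6 and 71.6 CPM in S14R/+ and 70.5, 69.1 and 70.2 CPM in the wild type. Id1, a BMP target, stood at 52.1, 51.7 and 49.2 CPM in S14R/+ and 57.2, 52.1 and 59.8 CPM in the wild type. Of 24 tested transition and mesenchyme effectors, 5 had a positive fold change, with a median of -0.05. Of the 24, 0 were higher and 4 lower without overlap, against the same 4.58% and 5.86%. Pdgfrb, a receptor of mesenchymal and mural cells, stood at 106, 104 and 106 CPM in S14R/+ and 118, 116 and 129 CPM in the wild type. Mmp14, a membrane-bound matrix protease, stood at 238, 241 and 235 CPM in S14R/+ and 244, 272 and 282 CPM in the wild type, and Col1a2 at 846, 911 and 851 CPM in S14R/+ and 884, 1099 and 1453 CPM in the wild type.

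Apart from the shares of counts within pairs, levels between genes were compared per length, as CPM per kilobase of annotated GENCODE M21 exons. In the Dzip1 wild type the order was Tbx20 (53.4 ± 5.39 CPM per kilobase), Twist1 (26.8 ± 2.31), Prrx2 (17.7 ± 0.690), Snai1 (12.0 ± 0.251), Snai2 (9.79 ± 0.425), Tbx2 (6.91 ± 0.854), Osr1 (6.29 ± 3.58), Prrx1 (2.76 ± 0.0577), Msx2 (2.68 ± 0.363) and Msx1 (1.12 ± 0.329) (SD, n = 3). Tbx2 and Osr1 overlapped, as did Prrx1 and Msx2, and the other neighbours did not. In S14R/+ the order of the means was the same down to Osr1, after which Msx2, at 2.97 ± 0.173, stood before Prrx1, at 2.50 ± 0.111 (SD, n = 3). The range of Osr1 there, 2.33 to 4.08, held those of Msx2 and Prrx1, so the place of Osr1 among these genes was not clear.

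The Ift88 experiment gave another order, in libraries counted and deposited in a separate table. Snai2 stood at 14.6 ± 0.818 CPM per kilobase in the knockout (SD, n = 3) and 14.9 ± 0.0990 in the wild type (SD, n = 2), and Snai1 at 0.936 ± 0.0658 in the knockout and 0.635 ± 0.481 in the wild type. Twist1 stood at 1.65 ± 1.19 in the knockout and 1.01 ± 1.01 in the wild type. On this scale Tbx20 led in the knockout, at 37.2 ± 5.93. In the wild type Snai2, with a range of 14.8 to 15, lay above Tbx20, at 7.84 ± 5.67 with a range of 3.83 to 11.8. Msx1, at 12.9 ± 12.5, had no clear place there: its range held that of Snai2 and overlapped that of Tbx20. Snai1 and Snai2 were thus near each other in the Dzip1 experiment and far apart in the Ift88 experiment, in knockout and wild type alike. In the Dzip1 experiment Snai2 took 50.5 to 53.2% of the counts of the pair in S14R/+ and 48.7 to 51.6% in the wild type. The tables were not tested against each other.

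**Figure D5:**
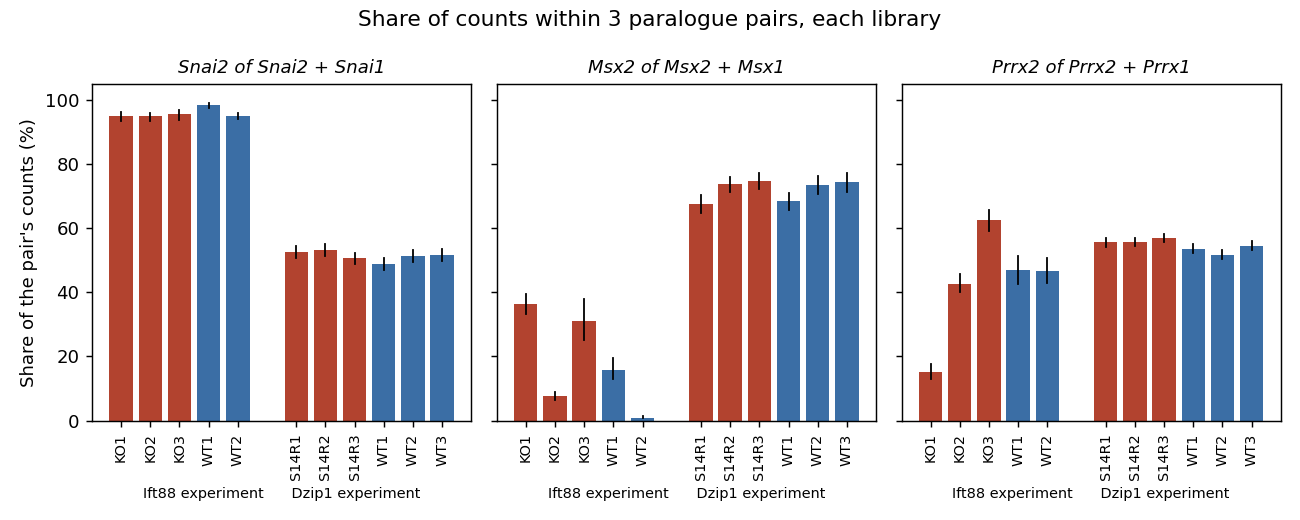
Share of the counts of 3 paralogue pairs that belonged to Snai2, Msx2 and Prrx2 (percent, axis from 0), 1 bar per library with its Wilson 95% interval, mutant libraries (red: Ift88 knockout KO, Dzip1 S14R/+) left of wild-type libraries (blue) within each experiment. Snai2 took over 94% in every Ift88 library and about as much as Snai1 in the Dzip1 libraries. The Msx2 shares run from 0.933% to 36.2% in the Ift88 libraries and from 67.5% to 74.7% in the Dzip1 libraries. No share is scaled for exon length, which is far greater for Prrx1 than for Prrx2.

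The genes most like the leading factor of each experiment were found as those with the smallest root mean square difference of centred log2 levels across its libraries. For Tbx2 in the Ift88 experiment these included Erbb4 and Lrrn2, with differences of 0.175 and 0.177 over 5 libraries, among 12787 genes. For Snai1 in the Dzip1 experiment they were Tll1, Aim2 and Zfp780b, with differences of 0.025, 0.0261 and 0.0307 over 6 libraries, among 14086 genes. With so few libraries and so many genes, close matches are a description of these libraries only.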

How the data were processed

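Libraries were prepared from DNase-treated leaflet RNA with a SMART-Seq kit, per the labels' protocols. Each experiment has its own table, in which the authors deposited whole-number counts per gene and library, and no per-sample column was left unused. The tools named, per the submitters' processing notes, are cutadapt 1.11 and FastQC 0.11.5, HTSeq, DESeq and DESeq2, on GRCm38. The aligner, annotation and strand setting were not given in the sources used here. Besides counts, the authors deposited, per the file headers, a signal (the mean of scaled counts), log2 fold changes with standard errors, a score (the fold change over its error) and p-values. The deposited Ift88 statistics followed the labelled groups (Pearson 0.898 across genes with a limma statistic). The Dzip1 statistics followed the labelled groups less (-0.529) than a split of S14R/+ replicates 1 and 3 with wild-type replicate 2 against the rest (-0.934), so they were not used.

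Each experiment was fitted by itself, on the counts, by the quasi-likelihood method of edgeR 4.0.16 (R 4.3.3) after filterByExpr and TMM scaling, with Benjamini-Hochberg adjustment over 14244 and 16160 genes and a threshold of 0.05. Fold changes are mutant over wild type. CPM are counts over the library total, without TMM. Alternatives were DESeq2 1.42.0, limma-voom (limma 3.58.1), other scalings and filters, a threshold of 0.1, a lowess length correction (span 0.3), each library left out, and covariates. A library alone in its group was assumed to vary like the others. Of 28591 symbols, 24256 had a GENCODE M21 gene under the same symbol and 2187 through a synonym. The fits were also tested on simulated data. There edgeR recovered most of the changes made at the spread of the Dzip1 libraries but called none at that of the Ift88 libraries. A threshold missed in edgeR in the Ift88 experiment therefore does not show that a level was unchanged. Intervals and floors (3 counts) cover counting error only. Of the other lists, the text names up to 3 genes by smallest p; Sln and Myl7 are also the first of theirs by that rule. Members and lists were chosen with earlier results of these data known. A gene that the likeness measure named is not reported here.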

Additional observations from a re-analysis of the deposited data

How the results depend on the processing

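Of the members' fold changes in the Ift88 experiment, 123 of those under alternatives other than leaving out a library kept their direction and side of the threshold. DESeq2 called 358 genes higher and 18 lower and 175 were higher and 9 lower in the authors' deposited table, against 0 in edgeR with an unadjusted p under 0.05 for 856; each called 1 factor, Tbx2, with log2 fold changes of 6.15 and 2.30. Leaving out 1 library gave 0 to 178 genes higher, 0 to 9 lower and 0 to 1 factors higher, the highest each time without wild-type replicate 1. Reversed values were 0.064 for Snai2 (length correction), 0.87 and 0.27 for Msx1 (IR28N libraries alone, muscle covariate) and -0.20 for Prrx2 (IR28N libraries alone), and the cause was not tested. With a library left out, Twist1 ranged from -0.0243 to 2.19, Snai1 from -0.036 to 1.36 and Msx1 from -1.68 to 0.43. Scaling by library size alone moved the median of all genes from -0.01 to 0.10, and it was 0.15 and 0.25 without wild-type replicate 1 or 2. With the mean count of at least 50, Snai1 was not tested.

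In the Dzip1 experiment all 100 such fold changes kept direction and side. With a library left out, 0 to 10 genes were lower (10 without wild-type replicate 2), and Twist1 ranged from -0.12 to 0.00926, Tbx2 from -0.14 to 0.00889, Tbx20 from -0.0209 to 0.12 and Msx1 from -0.0356 to 0.40. The deposited adjusted p was not run there, for the reason given under the processing. No paired analysis was possible because the replicate numbers follow accession order and pair no libraries.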
